A study of Neurospora crassa with 22 samples.

Results

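The peaks described here are places inside genes where chromatin precipitated with the transcription factor XLR-1 was enriched, mapped by chromatin immunoprecipitation and sequencing (ChIP-seq) in the filamentous fungus Neurospora crassa grown on Avicel, a microcrystalline cellulose. They were the peaks of XLR-1 Avicel list 3, 1 of the 3 peak lists of that condition, that lay on the 7 chromosomes, had an entry in the authors' deposited inside-gene column, and overlapped a peak of XLR-1 Avicel list 1 by at least 1 bp. Of the 6868 peaks of list 3 on the 7 chromosomes, 1460 met this rule, out of 42691 peaks deposited for the series. The comparison set was the 441 list 3 peaks that also overlapped list 1 but whose inside-gene column was empty, called column-empty peaks below.

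XLR-1 is a zinc binuclear cluster regulator of genes for xylan breakdown and xylose use, while CLR-1 and CLR-2 are regulators of the same class required for growth on cellulose. Regulators of this kind are best known for binding upstream of the genes they control, where they help to start transcription. A ChIP-seq peak within a gene body places the precipitated chromatin there and does not by itself show a DNA-binding site of the factor.

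All strains were of the OR74A (FGSC2489) background, grown for 16 h on sucrose in Vogel's minimal medium, washed, and moved to a new carbon source. For XLR-1, a GFP fusion of xlr1 stood at the his-3 locus behind the ccg-1 promoter in a deltaxlr1::HygR strain, with an antibody to GFP. Its chromatin came from mycelium 4 h after the move to Avicel (3 libraries) or to xylan (3 libraries). CLR-1 was a clr1-GFP fusion placed in the same way in a deltaclr1::HygR, mat A strain, on Avicel at 4 h (3 libraries) and 24 h (1 library) and on sucrose at 4 h (2 libraries). CLR-2 was an mCherry-clr2 fusion, also from the ccg-1 promoter at his-3, in a deltaclr2::HygR, matA strain on Avicel at 4 h (3 libraries), precipitated through mCherry. The CLR-2 library at 24 h on Avicel (1 library) came from a mat a heterokaryon for which no deletion is given, so it may still hold an untagged copy. A further CLR-1 strain carried clr1-V5::HygR with deltamus51::bar, mat a, on Avicel at 4 h (1 library), and its antibody is labelled none. The labels give the times as bare numbers, read here as hours. Each GFP and mCherry fusion was driven by the ccg-1 promoter and not by its own. The labels do not say whether libraries of a group came from separate cultures, so the spread between lists may be technical.

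The 22 samples of the series include 17 with a peak list. The 5 inputs and mock pulldowns were not analysed here, so whether their chromatin also gathers at these places was not tested. Total reads per library are unknown, and precision is set by the tags per peak. The median peak of XLR-1 Avicel lists 1, 2 and 3 held 17, 14 and 56 tags. Those lists had 2284, 897 and 6868 peaks on the 7 chromosomes. List 1 and list 2 shared 28 peaks with the same start and end, list 2 and list 3 shared 4, and list 1 and list 3 shared 1, so no list was a copy of another. The gene columns of xylan list 2 were a copy of those of xylan list 1 (172 of 172 inside-gene entries), so its peaks were placed in genes by their summits. CLR-2 Avicel list 1 stood apart, with a median fold enrichment of 0.500 and a median score of 1232. The score is the authors' -log10 p-value of the peak, multiplied by 10.

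The inside-gene call was nearly the same in both lists that chose the peaks. The list 1 peak named the same gene for 1416 of the 1460 (97.0%), had an empty column for 42 and named another gene for 2. The choice of lists weighed on the count: list 3 inside-gene peaks that overlapped list 2 numbered 428, list 1 inside-gene peaks that overlapped list 2 numbered 423, and 382 of the 1460 overlapped list 2. The 1460 peaks lay in 1412 genes: 2 genes held 3, 44 held 2 and the rest held 1. In the gene annotation, 1102 peaks (75.5%) lay wholly between the ends of the gene, and 32 spanned a whole gene. A single protein-coding gene was touched by 1326 peaks, 2 genes by 132 and at least 3 by 2. The summits of overlapping list 3 and list 1 peaks lay a median of 60 bp apart (quartiles 21.8 and 214), against 27 bp (11 and 85) for column-empty peaks. Both summits were within 100 bp of each other in 62.1% of the inside-gene peaks and in 76.2% of the column-empty peaks. At the edge of the rule, 5 peaks overlapped list 1 by under 50 bp, with folds of 5.28 to 8.30 and scores of 62.3 to 151. A further 11 inside-gene peaks missed a list 1 peak by up to 50 bp and had folds of 5.17 to 10.1 and scores of 54.7 to 328.

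Within genes, the peak summits were most frequent just after the start codon and thinned out with distance. The deposited distance from the start codon to the summit had a median of 701 bp and quartiles of 308 and 1367 bp over 1458 peaks, leaving out 2 with a distance below 0. The 5th and 95th percentiles were 87.9 and 3190 bp, and the farthest summit lay 31133 bp into NCU02793. A summit lay within 250 bp of the start codon in 301 peaks (20.6%), within 500 bp in 542 (37.2%) and within 1000 bp in 925 (63.4%). In list 1 the summits of the same peaks had a median distance of 748 bp over 1415 peaks, with 62.4% within 1000 bp. The spread of the median distance over the inside-gene peaks of the 3 Avicel lists was small (SD 5.77 bp).

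**Figure D1:**
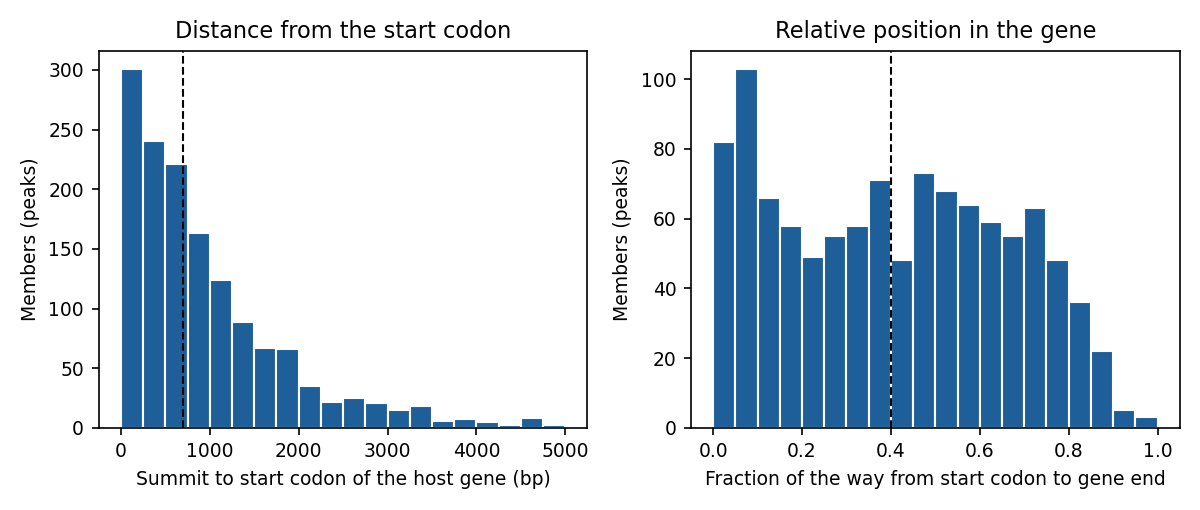
Position of the list 3 summits inside genes. Left, number of peaks by distance from the start codon in bins of 250 bp, with 21 peaks beyond 5000 bp not drawn; right, number of peaks by fraction of the way from start codon to gene end, for 1088 peaks with a known start codon. Dashed lines are medians, 701 bp and 0.400; the last bin on the right holds 3 peaks.

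Set against gene length, the summits were spread over most of the gene and were few at its end. A start codon and strand could be read from the deposited tables for 1088 of the peaks, and the deposited distance was recomputed to within 3 bp for 1086 of them. Their median summit was 0.400 of the way from the start codon to the annotated gene end. In 4 equal bins along that way, 358, 305, 309 and 114 summits (32.9%, 28.0%, 28.4% and 10.5%) fell from the first to the last, and 2 fell before the start codon. In 20 equal bins, the fullest was the one next to the first, with 103 summits, and the last held 3. List 1 summits gave a like split, with 330, 291, 308 and 116, and 35 before the start codon. The peaks are wide beside these distances: 478 of the 1088 (43.9%) covered the start codon itself. An empty inside-gene column did not always mean a site between genes. Of the 441 column-empty peaks, 133 had a summit within the bounds of an annotated gene, 119 of them ahead of its start codon and 11 after it.

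Peaks inside genes were wider than column-empty peaks in list 3 but less enriched. Their width had a median of 1112 bp (quartiles 865 and 1463), against 936 bp (756 and 1279). They held a median of 89 tags against 76, and the density of tags was close, at 78.6 against 76.5 tags per kb of peak. Scores had medians of 260.9 and 215.9. Fold enrichment, the authors' ratio of tags to local background, went the other way, with a median of 9.34 (quartiles 8.30 and 10.6) against 11.1 (8.80 and 14.1). High folds were rare inside genes: 26 peaks (1.78%) reached 15-fold, against 90 column-empty peaks (20.4%). The top fold was 41.2 for inside-gene peaks and 67.5 for column-empty peaks. The 3757 inside-gene peaks of list 3 that did not overlap list 1 were narrower and weaker, with medians of 841 bp, 50 tags and 7.79-fold.

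**Figure D2:**
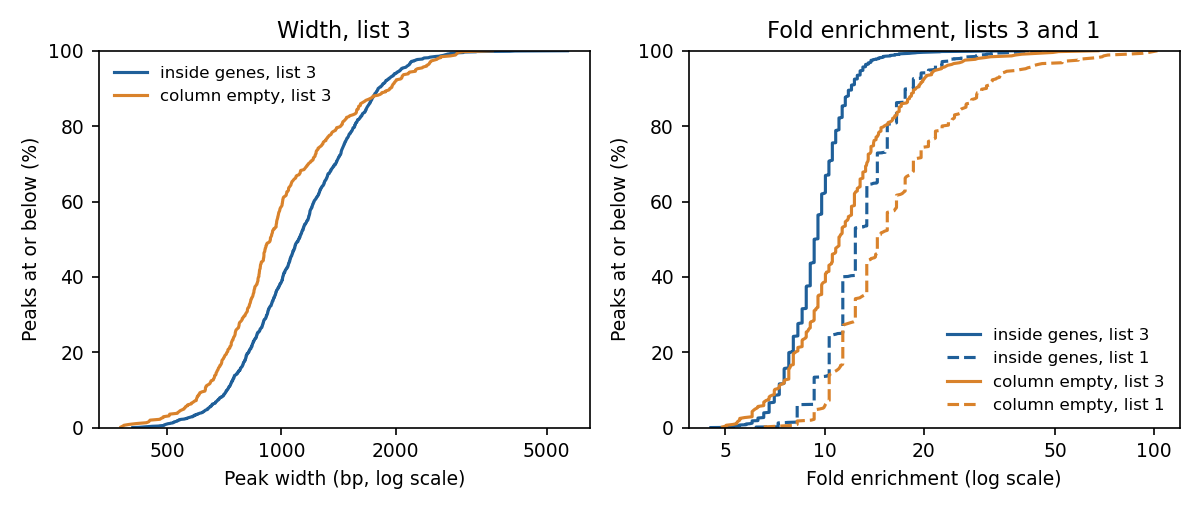
Cumulative share of peaks by width in list 3 (left, bp, log scale) and by fold enrichment in lists 3 and 1 (right, log scale), for 1460 peaks inside genes (blue) and 441 column-empty peaks (orange). The widths of inside-gene peaks lie to the right at the median, 1112 against 936 bp, and their folds to the left in both lists.

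The lower fold was seen in every XLR-1 Avicel list, and the greater width was not. Over all peaks with the column filled and empty, the median fold was 12.4 against 14.5 in list 1, 11.8 against 15.7 in list 2, and 8.30 against 9.05 in list 3. Median width was 624 against 612 bp in list 1, 597 against 618.5 bp in list 2, and 900 against 820 bp in list 3. At the list 1 peaks under the inside-gene and column-empty sites, widths were 634 and 628 bp, tags 17 and 18, and folds 12.4 and 14.5. With 3 lists an exact sign-flip test cannot go below p = 0.25, so these differences are given as values.

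Peaks inside genes had a counterpart on xylan, with the same fusion, less often than column-empty peaks. Their share was above that of all 6868 list 3 peaks, of which only 1901 overlapped list 1 as the inside-gene peaks had to. Xylan lists 1, 2 and 3 overlapped 111 (7.60%), 98 (6.71%) and 72 (4.93%) of the 1460, while 4.75%, 5.08% and 4.47% of all list 3 peaks overlapped them. Of the 441 column-empty peaks, the same lists overlapped 126 (28.6%), 134 (30.4%) and 121 (27.4%). The share was lower inside genes in 3 of 3 lists, at 6.42% ± 1.36 against 28.8% ± 1.49 (SD, n = 3 lists). The difference was -22.4 ± 1.36 percentage points, with an exact sign-flip p of 0.25 (two-sided), the smallest that 3 lists can give. Among list 3 peaks in the middle of 3 equal fold bins, 641 of them inside genes and 98 column-empty, the shares in the xylan lists were 4.52%, 3.74% and 3.43% against 19.4%, 16.3% and 14.3%. In at least 2 of the 3 xylan lists were 95 peaks (6.51%) inside genes and 130 column-empty peaks (29.5%). Where a peak of xylan list 1, 2 or 3 did overlap, its summit lay a median of 144, 101 and 583.5 bp away inside genes and 70.5, 34.5 and 53 bp away at column-empty peaks.

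CLR-1 peaks were found at a smaller share of inside-gene sites than of column-empty sites. CLR-1 Avicel lists 1, 2 and 3 at 4 h overlapped 131 (8.97%), 144 (9.86%) and 158 (10.8%) of the 1460 peaks inside genes. They overlapped 10.4%, 6.03% and 13.3% of all list 3 peaks, most of which did not overlap XLR-1 Avicel list 1. Of the inside-gene list 3 peaks outside that list, they overlapped 3.46%, 2.71% and 4.84%. Column-empty peaks were overlapped in 46.7%, 23.8% and 51.5% of cases. Means were 9.89% ± 0.925 and 40.7% ± 14.8 (SD, n = 3 lists), a difference of -30.8 ± 14.7 points that had the same sign in 3 of 3 lists (exact sign-flip p = 0.25, the smallest possible). CLR-1 on sucrose overlapped 6.92% and 22.7% of inside-gene peaks in its 2 lists, and 28.8% and 51.2% of column-empty peaks, beside 7.02% and 25.9% of all list 3 peaks (exact p = 0.50, the smallest 2 lists allow). The single V5 list overlapped 9.66% against 29.7%, with 6.55% of all list 3 peaks. The single CLR-1 list at 24 h, with 8110 peaks of a median width of 224 bp, overlapped 39.9% against 60.5%, with 37.2% of all list 3 peaks. The XLR-1 summit itself fell in a 24 h CLR-1 peak at 12.4% of the inside-gene sites and at 43.8% of the column-empty sites.

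CLR-2 peaks gave a different picture, and it rested on 1 list. CLR-2 Avicel list 3 overlapped 1005 (68.8%) of the peaks inside genes and 318 (72.1%) of the column-empty peaks, where 33.5% of all list 3 peaks of XLR-1 were overlapped. Of XLR-1 list 3 peaks outside XLR-1 list 1, it overlapped 18.9% of those inside genes and 22.0% of those column-empty. Lists 1 and 2 of the same group overlapped 254 (17.4%) and 93 (6.37%) of the inside-gene peaks, 23.8% and 13.8% of the column-empty peaks, and 8.58% and 5.52% of all. The 3 differences averaged -5.72 ± 2.18 points (SD, n = 3 lists, exact sign-flip p = 0.25, the smallest possible). Among peaks in the middle fold bin, list 3 overlapped 72.7% inside genes and 69.4% of those column-empty, and the mean difference was -1.84 points (exact p = 0.75). The gap between inside-gene and column-empty peaks was wider for CLR-1 than for CLR-2, with a difference between their means of -25.1 points (exact permutation p = 0.10, two-sided, the smallest that 3 lists against 3 allow). In the single CLR-2 list at 24 h the shares were 21.8% and 37%, with 23.2% for all list 3 peaks.

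**Figure D3:**
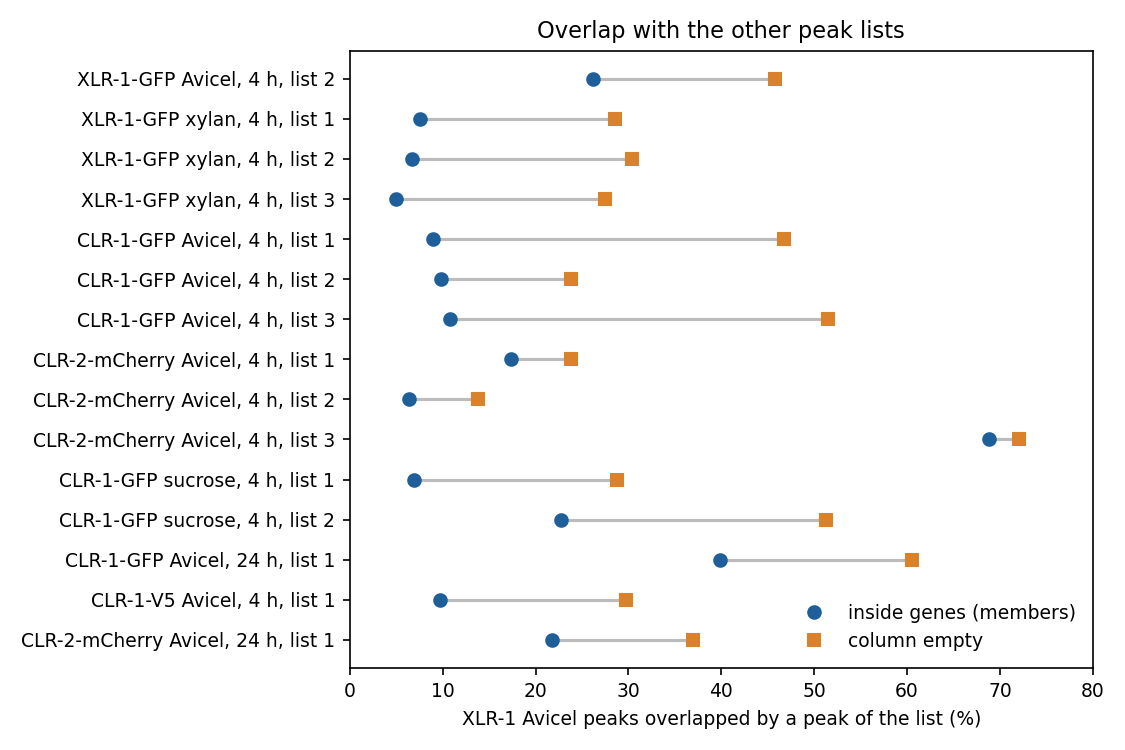
Share of XLR-1 Avicel list 3 peaks overlapped by at least 1 bp by a peak of each other list, for 1460 peaks inside genes (circles) and 441 column-empty peaks (squares). Circles lie left of squares in all 15 lists shown; the closest pair is CLR-2 Avicel list 3 at 68.8% and 72.1%.

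The CLR-2 list 3 peaks at these sites mostly lay inside the same genes and had low deposited folds. Their summits fell in an annotated gene for 970 of 1005, and 936 named the same gene as the XLR-1 peak. Median distance between the XLR-1 and CLR-2 summits was 105 bp. Their fold enrichment had a median of 1.37, with 84 peaks below 1, in a list whose own median was 1.15. At the 318 column-empty sites it was 1.65. Scores were not low: the median was 317 over all peaks of CLR-2 list 3, against 132 in XLR-1 Avicel list 3. In CLR-2 list 1, 236 of the 254 peaks at inside-gene sites had a fold below 1, with a median of 0.480. Across the 1005 shared sites, tags in XLR-1 list 3 and CLR-2 list 3 had a Spearman correlation of 0.46, a description over sites that share peak width and host sequence. At the 318 column-empty sites it was 0.35. Scores gave 0.31 and 0.24 in the same order. For XLR-1 Avicel list 2, a library of the same fusion and condition, the tag correlation was 0.03 over 382 shared inside-gene sites and 0.09 over 202 column-empty sites. These are other sites, in a list whose median peak held 14 tags, so the values for the 2 lists are not directly comparable. That list overlapped 26.2% of the inside-gene peaks and 45.8% of the column-empty peaks, with 9.52% of all list 3 peaks.

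The share of inside-gene peaks that CLR-2 list 3 overlapped was larger at higher scores of the XLR-1 peak, and the xylan and CLR-1 shares were not. Split into 4 bins of 365 peaks by list 3 score, CLR-2 list 3 overlapped 47.7%, 65.5%, 76.2% and 86.0% from the lowest to the highest. Xylan list 1 overlapped 9.86%, 8.49%, 4.66% and 7.40%. CLR-1 list 1 overlapped 13.4%, 8.77%, 5.48% and 8.22%. XLR-1 Avicel list 2 overlapped 20.8%, 18.4%, 22.7% and 42.7%. At column-empty peaks, over the same score ranges, CLR-2 list 3 overlapped 63%, 71.4%, 82.4% and 79.4%, CLR-1 list 1 overlapped 41.4%, 40.8%, 55.4% and 54.2%, and xylan list 1 overlapped 32.7%, 24.5%, 16.2% and 34.6%. Inside-gene peaks of list 3 outside list 1 were overlapped by CLR-2 list 3 in 18.9% of cases.

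**Figure D4:**
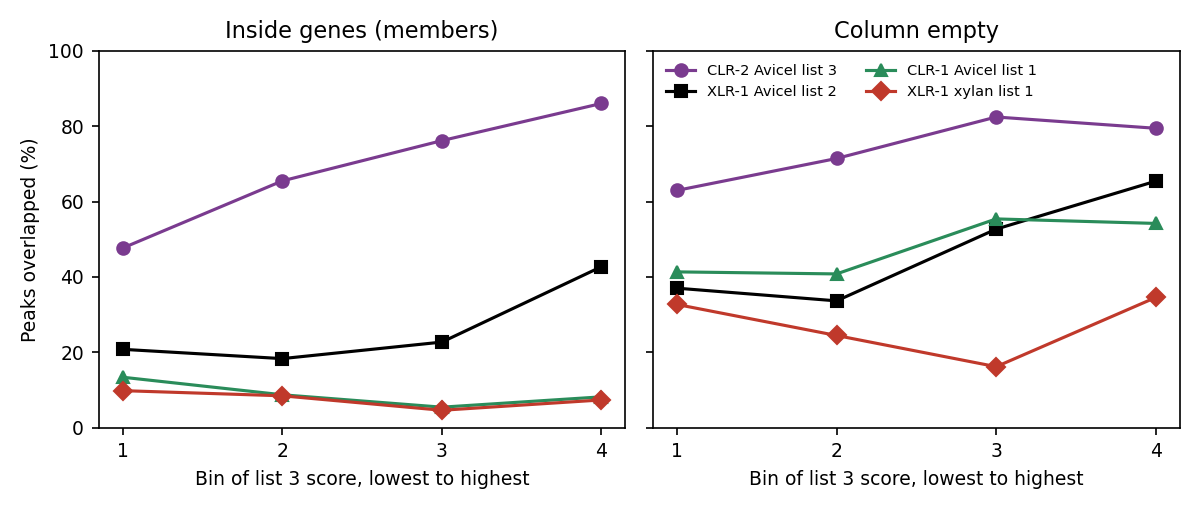
Share of XLR-1 Avicel list 3 peaks overlapped by 4 other lists, in 4 bins of the list 3 score (ranges set on the inside-gene peaks), for 1460 peaks inside genes (left) and 441 column-empty peaks (right). On the left the CLR-2 list 3 line goes from 47.7% to 86.0%, while xylan list 1 and CLR-1 list 1 lie between 4.66% and 13.4% in every bin.

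Sorting the peaks by all 9 lists of the 4 h xylan, CLR-1 and CLR-2 groups gave the following counts. No xylan and no CLR-1 list reached 1149 of the inside-gene peaks (78.7%), against 145 column-empty peaks (32.9%). Of those 1149, 772 lay under CLR-2 list 3, as did 96 of the 145 column-empty peaks. These classes were not counted over all list 3 peaks, of which single xylan and CLR-1 lists overlapped 4.47% to 13.3%. Of list 3 peaks outside list 1, these single lists overlapped 1.17% to 4.84% of those inside genes and 2.98% to 28.4% of those column-empty. None of the 9 lists reached 342 inside-gene peaks (23.4%), against 40 column-empty peaks (9.07%). At least 2 CLR-1 lists reached 134 (9.18%) and 197 (44.7%), and at least 2 CLR-2 lists 267 (18.3%) and 103 (23.4%).

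By distance from the start codon, the shares under CLR-2 list 3 were close. Those under the xylan lists and under CLR-1 lists 1 and 3 were lowest beyond 1000 bp, and that under CLR-1 list 2 was lowest up to 250 bp. These differences were not tested. Inside-gene peaks with a summit up to 250 bp (301), beyond that up to 1000 bp (624) and over 1000 bp (533) from the start codon were overlapped by xylan list 1 in 7.64%, 8.01% and 6.94%, and by xylan list 2 in 7.64%, 7.69% and 4.88%. CLR-2 list 3 overlapped 69.8%, 68.8% and 68.5% of them. Xylan list 3 overlapped 5.98%, 4.97% and 4.13%, and CLR-1 list 1 overlapped 9.63%, 10.3% and 6.94%. CLR-1 list 3 overlapped 12.3%, 13.3% and 6.94%, and CLR-1 list 2 overlapped 8.31%, 10.3% and 10.1%. Median folds were 9.55, 9.55 and 9.30 and median widths 1029, 1100 and 1153 bp.

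The best-ranked inside-gene peak by score in lists 3 and 1 lay in NCU06427, on chromosome III from 1377443 to 1378327 in the NC12 assembly, with its summit 760 bp from the start codon. Its fold was 49.6, 51.0 and 41.2 in Avicel lists 1, 2 and 3. It was also under xylan lists 1 and 2 at 28.3-fold and 189-fold and under CLR-1 Avicel list 2 at 10.6-fold. NCU16695, next on chromosome III from 4467844 to 4468483, had folds of 37.2, 43.1 and 30.7, and 37, 128 and 12.8 in xylan lists 1, 2 and 3. In all, 6 inside-gene peaks reached 20-fold in list 3, against 34 column-empty peaks.

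No xylan list overlapped 1318 (90.3%) of the 1460 peaks and 287 (65.1%) of the column-empty peaks. The like count was not made for all list 3 peaks, of which single xylan lists overlapped 4.47% to 5.08%. Among the other 13 of the 15 best-ranked inside-gene peaks, only NCU03624 and NCU05846 had a xylan peak, in 1 list each. NCU05685 on chromosome III (499547 to 500868) had folds of 20.7, 18.2 and 15.1 in Avicel lists 1, 2 and 3, and among the 9 lists only a CLR-2 list 3 peak, at 0.970-fold. The peak of aln-1 (NCU02296), the gene of allantoinase in purine breakdown, lay on chromosome VII from 3016609 to 3018537 with folds of 20.7, 14.4 and 11.3, and under CLR-2 list 3 at 1.13-fold. That of acw-8 (NCU07277), named as an anchored cell wall protein, on chromosome IV from 4548061 to 4549422, had folds of 33.1, 10.5 and 15.8. NCU10264, on chromosome I from 7514070 to 7516216, had folds of 26.9, 15.7 and 27.9 and was under none of the 9 lists. The rest of the 15 lay in NCU07029, NCU05700, NCU03624, NCU08473, NCU07855, NCU09843, NCU02046, NCU07438 and NCU05846, with list 3 folds between 9.05 and 12.9.

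The 5 widest peaks were 3260 to 5681 bp wide. That in NCU09657 (chromosome IV, 88199 to 93879) was 5681 bp wide in a gene of 5523 bp, with 490 tags and a fold of 11.6 in list 3, against 833 bp and 26 tags in list 1. The peak in NCU07029 (chromosome IV, 4966841 to 4970966) was 4126 bp wide with 451 tags. The other 3 of the 5 widest lay in NCU10282 (4001 bp), NCU08893 (3261 bp) and NCU02793 (3260 bp), in genes of 8151, 1393 and 34205 bp. NCU02793, the longest gene in the annotation at 34205 bp, held 3 of the peaks, with list 3 folds of 9.55, 13.3 and 12.8 at 2441, 15857 and 31133 bp from the start codon. The polyketide synthase gene pks-3 (NCU04865) held 3 as well, with folds of 8.04, 7.79 and 7.54 in list 3 and 7.23, 13.4 and 9.30 in list 1. Behind these by rank came NCU08962, NCU10346 and NCU04784, with 2 each.

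Only 1 of the 1460 peaks lay under every 4 h list of XLR-1, CLR-1-GFP and CLR-2 on Avicel or xylan. It was in NCU03719, on chromosome V from 2195083 to 2196476, with its summit 1952 bp from the start codon. Its folds were 23.8, 28.8 and 9.30 for XLR-1 on Avicel and 22.9, 23.0 and 6.69 on xylan. For CLR-1 they were 11.4, 25.8 and 6.96, and for CLR-2 0.830, 2.44 and 1.76. A column-empty peak, on chromosome I from 346848 to 348024, also lay under all of these lists. At the other end, 269 peaks had none of the 9 lists, the V5 list or the sucrose lists over them. Neither count was made over all column-empty or all list 3 peaks. All of the first 10 of the 269 by rank, except NCU07283, did lie under the CLR-1 list at 24 h, at 5 to 15-fold. That list overlapped 39.9% of all 1460. Best-ranked among these were NCU10264, above, and his-6 (NCU07156), a histidine biosynthesis gene on chromosome V (6401136 to 6403294), with folds of 16.5, 11.8 and 10.6 in Avicel lists 1, 2 and 3. The other 8 of the first 10 were in NCU09136, NCU06515, NCU09798, NCU02103, NCU10309, NCU07283, NCU04164 and NCU09846, with list 3 folds of 8.55 to 13.6.

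The 5 best-ranked column-empty peaks had list 3 folds of 29.2 to 51.3, a range that also holds the 41.2 and 30.7 of NCU06427 and NCU16695, and all 5 lay under all 3 xylan lists. The best, on chromosome II from 2882198 to 2884482, had folds of 99.1, 114 and 51.3 on Avicel and 123, 219 and 86.7 on xylan. The peak before gh11-2 (NCU07225), an endoxylanase gene, on chromosome V from 6200406 to 6201414, had folds of 96.1, 133 and 38 on Avicel and 134, 230 and 87.3 on xylan. That before NCU01900 on chromosome I (2094341 to 2096298) had 52.6, 74.7 and 49.3 on Avicel. The other 2 of the first 5 lay between NCU10110 and NCU04401 on chromosome IV, and on chromosome I from 346848 to 348024.

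Genes for cellulose breakdown held the peaks at about the share of all genes, but held any inside-gene peak of list 3 more often. Over all 9729 protein-coding genes on the 7 chromosomes, 14.5% held one of the 1460 peaks and 46.3% held any inside-gene peak of list 3. Of 16 genes for cellulose breakdown, 2 held one of the peaks and 14 held an inside-gene peak of list 3. These 2 were gh61-2 (NCU07760), a lytic polysaccharide monooxygenase gene, with folds of 22.7, 17 and 10.1 in Avicel lists 1, 2 and 3, and cdh-1 (NCU00206), for cellobiose dehydrogenase, with 18.6 and 11.8 in lists 1 and 3 and no list 2 peak. Both also lay under all 3 CLR-2 lists at 4 h, at 0.200, 1.96 and 1.70-fold for gh61-2 and 0.290, 9.01 and 1.73-fold for cdh-1. Neither lay under a xylan or CLR-1-GFP Avicel list at 4 h, but the cdh-1 peak lay under the CLR-1 list at 24 h, at 10-fold. Cellulase genes such as cbh-1, gh6-2 and gh5-1, for cellobiohydrolases and an endoglucanase, had an inside-gene peak in list 3 alone, at 6.03, 9.05 and 9.05-fold.

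Of 12 genes for xylan breakdown and pentose use, 1 held one of the peaks, 6 an inside-gene peak of list 3, and 9 stood beside a column-empty peak of list 3. The 1 was NCU04870, with a list 3 fold of 6.28, where the list 1 peak had a fold of 16.5 and an empty inside-gene column. It was under all 3 xylan lists at 12, 24.2 and 17.6-fold. None of 4 sugar transporter genes held one of the peaks, and 2 stood beside a column-empty peak. Among 10 regulator genes, 3 held one: NCU05846, at 11.4 and 10.3-fold in lists 1 and 3, NCU05414, at 17.6 and 8.80-fold, and cre-1 (NCU08807), the carbon catabolite repressor gene, at 17.6 and 8.30-fold. The list 1 peak of cre-1 had an empty inside-gene column and its summit lay 851 bp from that of list 3. The cre-1 peak would not be counted with a score of at least 100 in both lists, an overlap of at least 50% of the shorter peak, or the list 3 summit inside the list 1 peak, and the same holds for NCU04870. The NCU05846 summits lay 1513 bp apart, and that peak too would not be counted by the summit rule. NCU05846 lay under CLR-1 lists 1 and 3 at 31.3 and 27.9-fold. An inside-gene peak of list 3 was held by 6 of the 10 regulator genes. The genes of XLR-1 and CLR-1, xlr-1 and clr-1, had no inside-gene peak in any XLR-1 Avicel list and each stood beside a column-empty peak of list 3. The gene of CLR-2, clr-2, had an inside-gene peak in list 3 alone, at 10.55-fold, and stood beside no column-empty peak of that list. None of 14 housekeeping genes held one of the peaks, although 7 had an inside-gene peak in list 3, among them gpd-1 at 15.6-fold and tef-1 at 11.8-fold. These gene lists were small, and a share over so few genes has little precision.

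Families of genes with a shared symbol held one of the peaks in shares from 0% to 63.6%. Genes with a symbol did so in 222 of 1118 cases (19.9%) and genes without in 1190 of 8611 (13.8%). The 24 families were all symbol stems with at least 8 genes, taken after the peaks were known. Peroxin genes (pex), for making peroxisomes, held one in 10 of 20 cases (50%). Their list 3 folds ran from 8.04 to 13.1 and their list 1 folds from 8.26 to 16.5. All 10 were without a xylan or CLR-1-GFP Avicel peak at 4 h, and 8 lay under CLR-2 list 3, where 78.7% and 68.8% of all 1460 peaks did the same. The highest by list 3 score was pex2, with 204 tags and folds of 11.4 and 10.6 in lists 1 and 3, 300 bp from the start codon. Anchored cell wall protein genes (acw) held one in 7 of 11 cases (63.6%), with list 3 folds of 8.04 to 15.8, no xylan or CLR-1-GFP Avicel peak at 4 h, and CLR-2 list 3 over 4 of them. The acw-8 peak did lie under a CLR-1 sucrose list, at 2.84-fold, and under CLR-1 at 24 h, at 5.21-fold. Of the ham genes, named for hyphal fusion, 5 of 9 held one, and ham-7 lay under all 3 xylan lists.

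The glycoside hydrolase family (gh) had 15 of 79 (19.0%), with list 3 folds between 6.79 and 12.8. Its peaks lay under a xylan list in 2 cases and a CLR-1-GFP Avicel list at 4 h in 4. Its 15 included gh61-2, gh61-3 and gh6-1, and also genes of families outside cellulose breakdown such as gh18 (chitinases) and gh47 (mannosidases). The stk kinase genes had 11 of 53 (20.8%) and the nuo genes of respiratory complex I 4 of 29 (13.8%). None of 9 hH (histone) genes and none of 8 col genes did. Gene length differed between families: the median gene was 2350 bp for pex, 2080 bp for acw, 4177 bp for ham, 2402 bp for gh, 1728 bp for hH and 4170 bp for col, against 2129 bp over all genes. Its part in these shares was not tested.

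Longer genes held a peak more often. Host genes had a median length of 2504 bp, genes with no inside-gene peak of list 3 had 1830 bp, and genes with such a peak outside the 1460 had 2423 bp. In 4 equal bins from the shortest to the longest genes, 6.29%, 15%, 16.9% and 19.9% held one of the 1460 peaks, and 24.1%, 45.1%, 55.0% and 61.0% any inside-gene peak of list 3. By chromosome the share of genes ran from 13.6% on III to 16.9% on II. Standing beside a column-empty peak was about as common for host genes as for all genes: 276 of 1412 host genes (19.5%) stood beside a column-empty peak of list 3, where 20.9% of all genes did. For genes beside a peak in both xylan lists 1 and 3, the shares were 3.97% and 3.93%.

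Across the lists, peaks inside genes made up most of the XLR-1 calls on Avicel and a minority on xylan. The inside-gene column was filled for 70.7%, 53.4% and 76.0% of peaks in Avicel lists 1, 2 and 3. On xylan it was filled for 18.3% and 9.57% in lists 1 and 3, and 32.7% of list 2 summits lay in an annotated gene. Means were 66.7% ± 11.8 on Avicel and 20.2% ± 11.7 on xylan (SD, n = 3 lists each), and the groups did not overlap (exact permutation p = 0.10, two-sided, the smallest that 3 against 3 allow). Among peaks with a score of at least 100 the Avicel mean was still higher. The same exact permutation test then gave p = 0.20, so the groups were no longer fully separated. With summits in annotated genes for all lists, the means were 74.6% ± 10.8 and 27.2% ± 6.08. The Avicel lists held 897 to 6868 peaks and the xylan lists 658 to 942, and the part of list length in this difference was not tested beyond equally long lists, where the difference was 42.6 points.

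**Figure D5:**
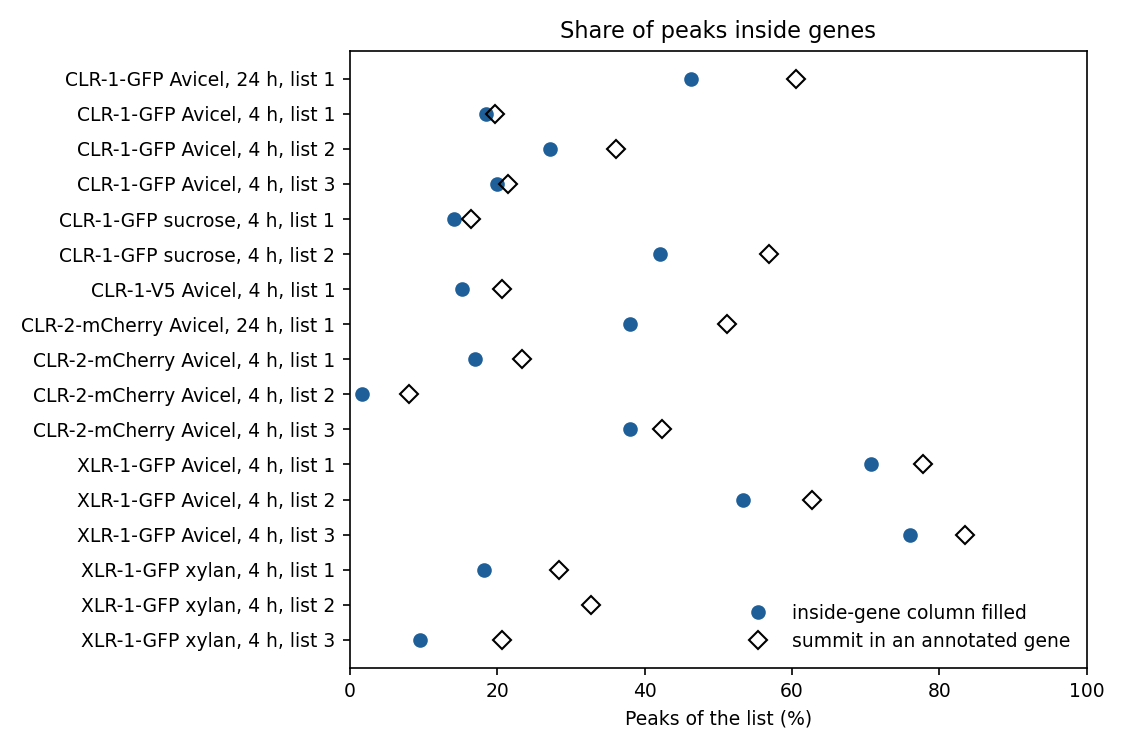
Share of peaks inside genes in each of the 17 lists, by the deposited column (circles) and by summits in an annotated gene (diamonds); the copied column of xylan list 2 is not drawn. The 3 XLR-1 Avicel lists lie at 53.4% to 76.0% by the column, above every other list shown.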

How the data were processed

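Bowtie2 aligned the reads, per the submitters' processing notes, and MACS made the peak calls, per the file headers. How the aligner was set, which MACS release was used and against which control is not given in these sources. Libraries had 24 cycles of PCR, per the labels' protocols. Tags per peak are a deposited count. The score is the authors' -log10 p-value times 10. Fold enrichment, as the authors deposited it, is a ratio over local background, and MACS's false discovery rate is a deposited percent. Widths and distances in bp are other values from the authors, on NC12 supercontigs. Each group has as many lists as libraries, with list numbers of the authors' own that are not tied to library numbers. Peaks outside the 7 chromosomes were left out.

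Overlaps of at least 1 bp, medians, shares and exact tests over lists were computed with Python 3.11.15, pandas 2.3.3, numpy 2.4.6 and scipy 1.17.1, drawn with matplotlib 3.10.9, and the overlap code was tested on simulated peaks. Peaks are not replicates, so no test runs over them. Gene symbols and bounds came from RefSeq (NC12). No sequence was used. The peaks and gene lists were chosen with earlier results of these data known. Named peaks were all those in the gene lists, the 15 best by mean score rank in lists 1 and 3, the 5 widest, the 5 genes with most, the 10 best in every and in no other 4 h list, and the 5 best column-empty peaks. Gene groups by product name could not be built, and symbol families, added after seeing the data, took their place. Alternatives changed thresholds, overlap rules, width, fold or score ranges, list lengths and lists left out.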

Additional observations from a re-analysis of the deposited data

How the results depend on the processing

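The 11 values tried were the count of peaks, the share inside genes on Avicel against xylan, the 4 overlap differences, the median differences in width, tags, score and fold, and the median distance. The overlap differences and the difference in share kept their sign in all 53 alternatives. No exact test over 2 or 3 lists can pass 0.05, so no call could change there. With a score of at least 100, the exact permutation p for the difference in share went from 0.10 to 0.20. Of 24 alternatives for the other values, 11 stayed within 1.5 times the count or 1 SD between lists. The count of 1460 was 486 with a score of at least 100 in both lists and 382 where list 2 had to overlap too. Leaving out each list gave 423 to 1460, the lowest from list 1 peaks overlapping list 2 without list 3, and 428 from list 3 peaks overlapping list 2 without list 1. Of 45 named peaks, 25 stayed when list 2 was required. The difference in width, 175.5 bp, was 6 bp at the list 1 peaks. The difference in tags, 13, was -1 at list 1 peaks, 6 with a score of at least 100 and 18.5 with summits in annotated genes. The difference in score, 44.9, was -8.76, 7.60 and 65.9 in the same order, so tags and score turned sign in list 1. The median distance of 701 bp was 748 bp from list 1 summits and 710 bp with a score of at least 100. The cause of these changes was not tested. The fold and score bins and the split by summit were chosen after seeing the data. With a fold of at least 5 in the other list, the CLR-2 difference went from -5.72 to -0.702 points and the CLR-1 sucrose difference from -25.2 to -6.73. In the middle fold bin the difference was -12.8 for xylan, -18.4 for CLR-1 on Avicel and -1.84 for CLR-2, and in the middle score bin it was -3.13 for CLR-2. With equally long lists it was -20.4 for CLR-1 on Avicel and -16.1 on sucrose. No paired analysis was possible because the list numbers are not tied to libraries and pair no samples. Total reads are unknown, and the median peaks of lists 1 and 2 held 17 and 14 tags.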
